A study of Mus musculus with 12 samples.

Results

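The respiratory chain subunits of complexes I to IV that are coded in the nucleus were followed in primary mouse hepatocytes (mouse HPC) over 4 h of stimulation with TGF-β1. Members were all probe sets paired with exactly 1 gene symbol that matched a rule on names. A matching symbol starts with Nduf, a subunit letter and a digit (complex I), or is Sdha, Sdhb, Sdhc or Sdhd (complex II). Others start with Uqcr (complex III) or with Cox4 to Cox8 (complex IV). This gave 75 probe sets of 64 genes, out of 21789 tested probe sets of 19938 genes. Complex I held 39 of these probe sets (35 genes), complex II 4 (4 genes), complex III 11 (8 genes) and complex IV 21 (17 genes). For 10 genes there was more than 1 probe set, and these are written as probe set 1, 2 or 3 of the gene. Another 6 probe sets that carry the name of such a subunit together with a second symbol, among them all probe sets of Cox7c and Ndufb4, were left out.

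The data are 12 arrays of the type Affymetrix Mouse Gene 1.0 ST, with 3 arrays per group: untreated control cells, and cells given TGF-β1 (recombinant human protein, 1 ng/mL) for 20 min, 2 h or 4 h. In all groups the hepatocytes came from male C57BL/6 mice, were isolated with collagenase, seeded on collagen and kept in the serum-free medium HepatoZYME-SFM, and the medium was exchanged 1 h before stimulation. The control has no later time points, so the time since this exchange and the treatment cannot be told apart. The labels number the arrays of a group 1 to 3 but do not say whether a number stands for a separate preparation of cells. The p values rest on the spread between these arrays that is left after differences between replicate numbers are removed in the fit.

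Complexes I to IV sit in the inner mitochondrial membrane and pass electrons from NADH and succinate through ubiquinone and cytochrome c to oxygen. Complexes I, III and IV pump protons as they do so, and ATP synthase uses the resulting gradient to make ATP. Hepatocytes are rich in mitochondria, since urea synthesis, gluconeogenesis and fatty acid oxidation depend on them. TGF-β1 is a cytokine that signals through receptor kinases and Smad proteins and is known in the liver for growth arrest and death of hepatocytes and for fibrosis.

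Signals are log2 values after robust multi-array averaging (RMA). Hepatocyte identity was clear from the marker genes: all 10 probe sets of the hepatocyte list lay above the median of tested probe sets, 7.23, and their mean signal per array lay between 12.78 and 12.92 at 4 h, against 12.89 to 13.07 in control cells. Markers of Kupffer cells and macrophages were present at low level (5 of 14 probe sets above that median), and 6 of 14 fell at 4 h while 0 rose (limma, adjusted p under 0.05, called for 3.02% of all tested probe sets lower and 1.57% higher). The 6 became 3 without 4 h replicate 1 or 2 or control replicate 3, 4 without 4 h replicate 3, 2 without control replicate 2 or all of replicate 2, and 1 without all of replicate 3. Their mean signal per array was 7.17 to 7.21 at 4 h, against 7.50 to 7.61 in control cells, and its part in the results below was not tested. The 4 arrays of replicate 1 stood apart from the other 8 in every group, on a first principal component with 70.8% of the variance, so changes are given within replicates throughout.

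The promoters of complex II are shown first, because its subunit Sdhb is the only member with a change past the threshold. The sequences are RefSeq windows on GRCm38.p6 from 250 bases before the annotated start to 30 bases after it, written 5′ to 3′ on the strand of the gene. Capitals mark the letters searched for 2 transcription factors known to act on nuclear genes of the respiratory chain, GCGCANGCG for NRF1 and CCGGAAG for GABPA, on either strand. The stretch shown is chr4:140961021-140961300 for Sdhb (plus strand), chr13:74350211-74350490 for Sdha (minus strand) and chr9:50603820-50604099 for Sdhd (minus strand).
Sdhb: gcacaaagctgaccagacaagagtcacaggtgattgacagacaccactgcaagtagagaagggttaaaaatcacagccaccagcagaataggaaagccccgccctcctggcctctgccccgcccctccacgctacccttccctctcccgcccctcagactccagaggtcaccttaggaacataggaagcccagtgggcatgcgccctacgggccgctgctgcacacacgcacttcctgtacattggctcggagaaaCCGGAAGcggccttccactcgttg
Sdha: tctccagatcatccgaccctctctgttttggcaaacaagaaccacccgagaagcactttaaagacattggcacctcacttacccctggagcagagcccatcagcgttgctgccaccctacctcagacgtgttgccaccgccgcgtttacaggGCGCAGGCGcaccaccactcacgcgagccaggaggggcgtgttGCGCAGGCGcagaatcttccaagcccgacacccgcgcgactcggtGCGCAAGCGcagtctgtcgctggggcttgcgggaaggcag
Sdhd: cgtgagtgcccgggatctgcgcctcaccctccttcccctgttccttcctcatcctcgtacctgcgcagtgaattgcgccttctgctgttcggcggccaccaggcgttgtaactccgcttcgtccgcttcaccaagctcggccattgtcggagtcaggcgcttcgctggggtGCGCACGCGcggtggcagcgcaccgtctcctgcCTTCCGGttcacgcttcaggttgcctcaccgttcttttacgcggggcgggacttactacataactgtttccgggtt
The Sdhb window holds 1 GABPA match just after the start, the Sdha window 3 NRF1 matches, and the Sdhd window 1 NRF1 match and 1 GABPA match, the last on the opposite strand. Sdhc had no window in the table. A match is only a stretch of letters and does not show that the factor binds.

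RefSeq windows of 300 bases, reaching 50 bases past the start, were at hand for 51 of the 64 genes. The NRF1 letters were present in 12 of these 51 genes (23.5%), against 7.03% of 27025 genes. The GABPA letters were present in 11 genes (21.6%, against 9.93%). The YY1 letters AANATGGCG were present in 7 genes (13.7%, against 2.76%), and AAGGTCA, the core of the site of the oestrogen-related receptors, in 3 genes (5.88%, against 5.38%). At least 1 of the 4 motifs was found in 27 genes, and matches of different motifs did not overlap. The median log2 change at 4 h was -0.04 over the 14 probe sets of genes with the NRF1 letters and -0.09 over the 45 without them. For GABPA it was -0.09 over 13 probe sets with the letters and -0.08 over 46 without. For YY1 it was -0.07 over 9 with and -0.08 over 50 without, and for AAGGTCA -0.10 over 3 with and -0.08 over 56 without. These differences were not tested.

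After 4 h with TGF-β1, 1 of 75 members fell and 0 rose compared with control (limma, adjusted p under 0.05, Benjamini-Hochberg over all tested probe sets). The background in the same comparison was 3.02% of tested probe sets lower and 1.57% higher, so the share of members called was not above it. The member that fell was Sdhb. The arrays measure the RNA of all cells in a dish, so fewer cells of a type and less RNA per cell cannot be told apart. Each of the 75 intervals (95%) of the change at 4 h lay within 0.5 on the log2 scale on either side of 0, as did those of 20097 of the 21789 tested probe sets. Among members, 65 of 75 fitted changes lay below 0, against 43% of all tested probe sets, and the median change was -0.08, against 0.02 over all tested probe sets. By replicate, the median was -0.15, -0.06 and -0.08 in replicates 1, 2 and 3. Without control replicate 1 the fitted median was -0.05, and without all of replicate 1 it was -0.04. In all 3 replicates, 30 members were lower than control and 0 were higher, where the background was 17.4% lower and 18.2% higher. At an unadjusted p under 0.05, 13 members were lower and 0 higher, with 9.49% and 7.54% of all tested probe sets. The lean below 0 was also present outside the members. ATP synthase had 30 of 31 changes below 0 with a median of -0.12, and the tricarboxylic acid cycle 13 of 18 with -0.07. Assembly factors of the complexes had 19 of 40 below 0 (median 0.01), and the large subunit of the mitochondrial ribosome 19 of 52 (median 0.04).

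**Figure D1:**
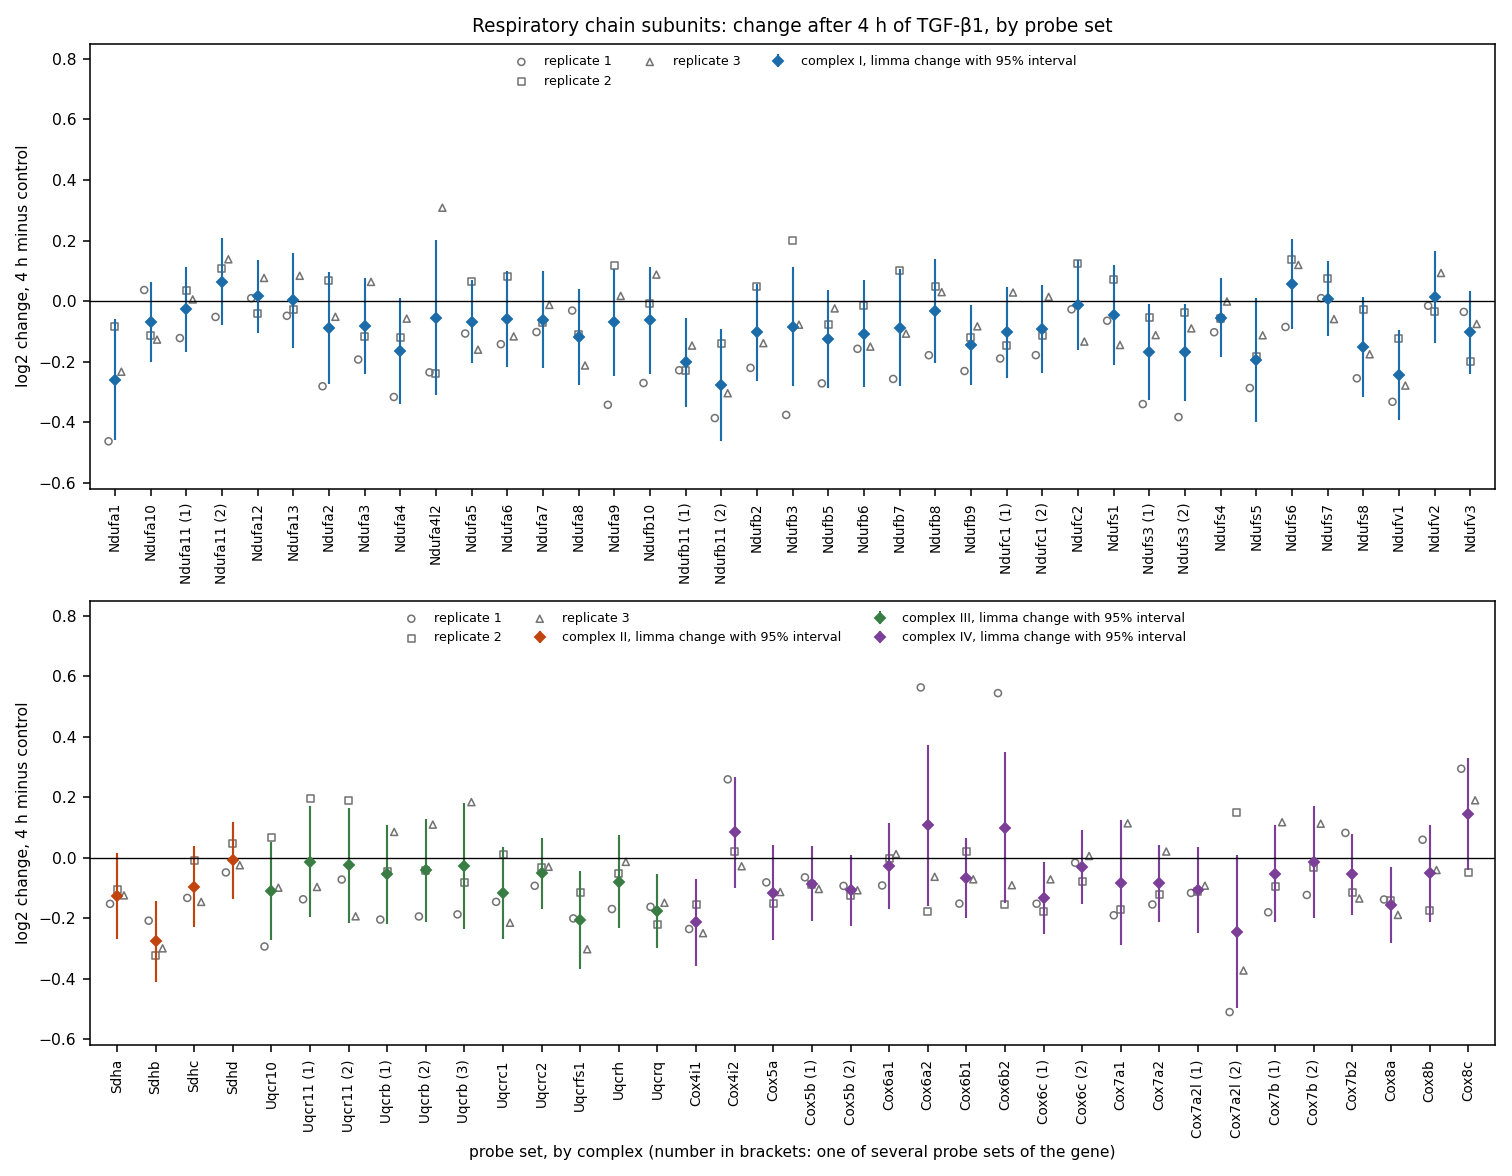
Log2 change at 4 h against control for each of the 75 probe sets (y axis), in order of complex and symbol (x axis); diamonds are the limma change with its 95% interval, open symbols the 3 replicate differences. Most diamonds lie a little below 0, and the interval of Sdhb lies between -0.41 and -0.14.

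Sdhb, the iron-sulphur subunit that carries electrons from the flavin of complex II towards ubiquinone, had signals of 11.15, 11.04 and 10.95 in the 4 h arrays of replicates 1, 2 and 3, against 11.36, 11.37 and 11.25 in the control arrays. Every 4 h array lay below every control array. The log2 change was -0.28 ± 0.06 (SE, n = 3), with -0.21, -0.32 and -0.30 in the 3 replicates (limma, adjusted p = 0.0278). Over the time course, the mean signal was 11.32 ± 0.06 in control cells, 11.16 ± 0.08 at 20 min, 11.17 ± 0.17 at 2 h and 11.05 ± 0.10 at 4 h (SD, n = 3 each). The changes at 20 min (-0.16) and at 2 h (-0.15) did not pass the threshold. The call at 4 h held in 14 of 25 alternatives. It was lost without the replicate block (adjusted p = 0.541), without 4 h replicate 1, 2 or 3 (0.0818, 0.12 and 0.101) and without control replicate 2 or 3 (both 0.105). Without all arrays of replicate 2 or of replicate 3 it was lost as well (0.235 and 0.262), while its change stayed between -0.32 and -0.25 in all 25.

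The other complex II subunits did not pass the threshold. Sdha, the flavoprotein that oxidises succinate, had 11.57, 11.25 and 11.14 in the 4 h arrays of replicates 1 to 3, against 11.72, 11.36 and 11.26 in the control arrays, a change of -0.13 with an interval of -0.27 to 0.02 (limma, adjusted p = 0.366). Each replicate was lower at 4 h, while the groups overlapped, as replicate 1 lay above the others in every group. Sdhc and Sdhd anchor the enzyme in the membrane and form the ubiquinone site. Sdhc had 11.02, 11.05 and 10.96 at 4 h, against 11.15, 11.06 and 11.11 in control cells, and Sdhd had 11.19, 11.15 and 11.12 at 4 h, against 11.23, 11.11 and 11.14 in control cells. The 4 h arrays of Sdhc lay just below the control arrays (change -0.10, limma adjusted p = 0.493), and those of Sdhd overlapped them (change -0.01, limma adjusted p = 0.967). Across all members, 3 had no overlap between the groups, all of them lower at 4 h: Sdhb, Sdhc and probe set 2 of Cox5b, a complex IV subunit. This was so for 5.58% of all tested probe sets, and 5.43% had 4 h arrays all above the control arrays, as did 0 members.

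**Figure D2:**
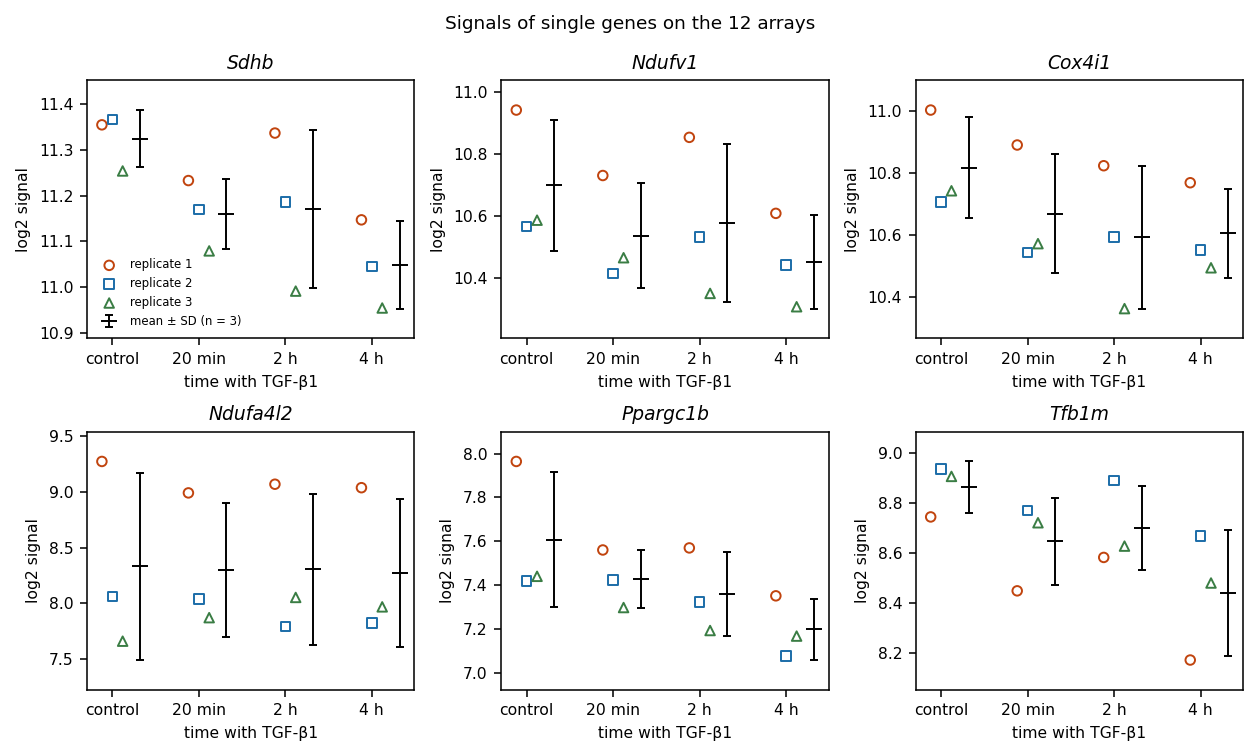
Log2 signals on the 12 arrays (y axis) over time with TGF-β1 (x axis, control at the left), with the replicates as separate symbols and mean ± SD beside them (n = 3). Sdhb at 4 h lies below all control arrays, Ndufa4l2 differs mainly between replicate 1 and the others, and Ppargc1b and Tfb1m are regulators outside the complexes.

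In complex I, 0 of 39 probe sets passed the threshold at 4 h, and 33 fitted changes lay below 0, with a median of -0.08. The catalytic core, which takes electrons from NADH through flavin and iron-sulphur centres, is measured here by 7 probe sets, with a median change of -0.15. Ndufv1, the subunit that binds NADH and the flavin, came nearest to the threshold of all members after Sdhb. It had 10.61, 10.44 and 10.31 in the 4 h arrays of replicates 1 to 3, against 10.94, 10.57 and 10.59 in the control arrays. Its change was -0.25 ± 0.07 (SE, n = 3; limma, adjusted p = 0.068), and replicates 1, 2 and 3 gave -0.33, -0.12 and -0.28. Ndufs8, an iron-sulphur subunit close to the ubiquinone site, had a change of -0.15 with an interval of -0.32 to 0.01, and both probe sets of Ndufs3 had -0.17 (limma, adjusted p = 0.256 and 0.255). The remaining core subunits stayed near 0, with Ndufs1 at -0.05, Ndufs7 at 0.01 and Ndufv2 at 0.01. The interval of Ndufv1 was -0.39 to -0.10 and that of Ndufs7 -0.12 to 0.13, and the difference between them was not tested.

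The accessory subunits of complex I surround the core and are needed for its assembly and stability. Members were placed by name, so Ndufa4, whose protein is now known as a subunit of complex IV, and its paralogue Ndufa4l2 are counted here. The 15 Ndufa probe sets had a median change of -0.07 with 12 below 0, the 10 Ndufb probe sets -0.11 with 10 below 0, and the 7 others (Ndufc, Ndufs and Ndufv) -0.09 with 6 below 0. The lowest change in complex I was that of Ndufb11, a subunit of the membrane arm, whose probe set 2 had 10.77, 10.49 and 10.38 at 4 h, against 11.16, 10.63 and 10.69 in control cells. This is a change of -0.28 ± 0.08, and probe set 1 of the same gene gave -0.20 ± 0.07 (SE, n = 3; limma, adjusted p = 0.0954 and 0.126). The groups overlapped in both, as replicate 1 at 4 h lay above replicates 2 and 3 of the control. Ndufa1, a small membrane subunit, had an uneven change, with -0.46, -0.08 and -0.23 in replicates 1, 2 and 3 (change -0.26, limma adjusted p = 0.149). The highest change was 0.06 in Ndufa11 probe set 2, where probe set 1 of the gene gave -0.03, and both intervals included 0.

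In complex III, which hands electrons from ubiquinol to cytochrome c, 0 of 11 probe sets passed the threshold, and all 11 changes lay below 0 with a median of -0.05. Uqcrfs1, the Rieske iron-sulphur protein, had 9.59, 9.35 and 9.25 in the 4 h arrays of replicates 1 to 3, against 9.79, 9.46 and 9.55 in the control arrays, a change of -0.21 (limma, adjusted p = 0.161). Uqcrq, a small subunit next to cytochrome b, had 11.26, 10.76 and 10.74 at 4 h, against 11.42, 10.98 and 10.89 in control cells, a change of -0.18 (limma, adjusted p = 0.109). Both were lower in all 3 replicates, while their groups overlapped, as replicate 1 at 4 h lay above replicates 2 and 3 of the control. The core proteins Uqcrc1 (-0.12) and Uqcrc2 (-0.05) and the accessory subunits Uqcrb (-0.05, -0.04 and -0.03 in its 3 probe sets) and Uqcr11 (-0.01 and -0.03) had intervals that included 0.

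In complex IV, cytochrome c oxidase, 0 of 21 probe sets passed the threshold. The forms used in liver and in most tissues are 14 probe sets, and all 14 changes lay below 0, with a median of -0.10. The forms restricted to other tissues are 7 probe sets, of which 3 changes lay below 0, with a median of 0.08. Of these 7, 6 had a mean signal below the median of tested probe sets, 7.23, among them Cox7a1 at 7.05 and Cox6b2 at 6.01. All values on the arrays ran from 3.84 to 15.22.

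Cox4i1, the common form of the regulatory subunit 4, had 10.77, 10.55 and 10.49 in the 4 h arrays of replicates 1 to 3, against 11.00, 10.71 and 10.74 in the control arrays. Its change was -0.21 ± 0.07 (SE, n = 3; limma, adjusted p = 0.101), with -0.24, -0.16 and -0.25 by replicate. Its paralogue Cox4i2, best known from lung, gave 0.08 with an interval of -0.10 to 0.27. Cox8a, the common form of the smallest subunits, had 12.40, 12.16 and 12.15 at 4 h, against 12.53, 12.31 and 12.34 in control cells, a change of -0.16 (limma, adjusted p = 0.179). Its paralogue of heart and skeletal muscle, Cox8b, gave -0.05, and the testis form Cox8c gave 0.15, the highest change of all members, with an interval of -0.04 to 0.33. For the subunit 6a, 6b and 7a pairs, the common forms Cox6a1 (-0.03), Cox6b1 (-0.07) and Cox7a2 (-0.08) stood beside the restricted forms Cox6a2 (0.11), Cox6b2 (0.10) and Cox7a1 (-0.08). The values above 0 of Cox6a2 and Cox6b2 came from replicate 1 (0.56 and 0.54), while replicates 2 and 3 lay below 0 (-0.18 and -0.06 for Cox6a2, -0.15 and -0.09 for Cox6b2). No difference between isoforms was tested. Cox7a2l, which takes part in joining complexes into supercomplexes, had uneven values, with -0.51, 0.15 and -0.37 in replicates 1, 2 and 3 of probe set 2 (change -0.24), whereas probe set 1 gave -0.11.

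Between complexes, the median change at 4 h was -0.08 in complex I, -0.11 in complex II, -0.05 in complex III and -0.07 in complex IV. With Ndufa4 and Ndufa4l2 moved to complex IV and Cox7a2l left out, complex I stayed at -0.08 and complex IV was at -0.06. With the probe sets of a gene averaged, complex III was at -0.09. The replicate medians of complexes I, II and III spread wider than the 4 values did. In replicate 1 the lowest median was that of complex I (-0.19) and the highest that of complex IV (-0.09). In replicate 2 complex IV was lowest (-0.11) and complex I highest (-0.04), and in replicate 3 complex II was lowest (-0.13) and complex IV highest (-0.07). The order of the complexes was thus different in each replicate. Without all of replicate 1, 2 or 3 in turn, the complex III median was -0.02, -0.12 and -0.11, and without replicate 1 that of complex I was -0.04.

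**Figure D3:**
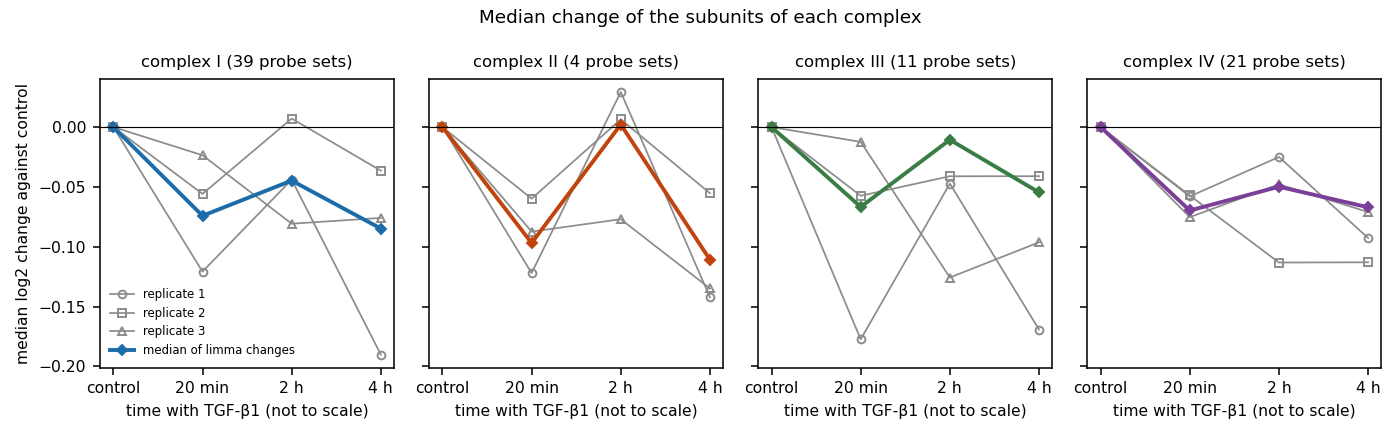
Median log2 change against control (y axis) over time with TGF-β1 (x axis, not to scale) for each complex, as the median of the limma changes (thick line) and within each replicate (thin lines). All 4 medians lie between -0.11 and -0.05 at 4 h, and the replicate lines cross.

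Fitted changes lay mostly below 0 at the earlier times too. At 20 min, 0 of 75 members passed the threshold (background 0%), 58 changes lay below 0 (49.4% of all tested probe sets) and the median was -0.07. At an unadjusted p under 0.05 (limma), 10 members were lower and 0 higher at 20 min (5.87% and 2.59% of all tested probe sets). At 2 h, 0 of 75 passed (background 0%), 60 changes lay below 0 (46.5%) and the median was -0.04, with 2 members lower and 1 higher at an unadjusted p under 0.05 (3.96% and 2.33% of all tested probe sets). The one higher was Cox4i2, with 0.26. ATP synthase had 31 of 31 changes below 0 at 20 min and 26 of 31 at 2 h, with a median of -0.07 at both times. All 3 comparisons share the control arrays, so their directions are not independent of each other. Set against the 20 min arrays in place of the control, 0 members passed at 4 h (background 0.184% lower and 0.436% higher), the median was -0.02 and 46 of 75 changes lay below 0 (46.3% of all tested probe sets). There, 3 members were lower and 0 higher at an unadjusted p under 0.05 (3.86% and 5.92% of all tested probe sets). In the F test over the time course, limma called 0 members (background 1.4%).

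The members also differed between replicates. In 39 of 75 members (52.0%) all 4 replicate 1 arrays lay above the other 8 arrays, against 8.94% of all tested probe sets. The reverse was true of 1 member, against 16.1%. The median difference between replicate 1 and replicates 2 and 3 was 0.20, against 0.02 over all tested probe sets. By complex, 21 of 39 probe sets of complex I, 1 of 4 of complex II, 7 of 11 of complex III and 10 of 21 of complex IV had this pattern.

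The widest difference was that of Ndufa4l2, a paralogue of Ndufa4 known as a hypoxia-inducible gene. Its replicate 1 signals were 9.27 in control cells, 8.99 at 20 min, 9.07 at 2 h and 9.04 at 4 h, and the highest of the other 8 arrays was 8.06. The difference was 1.19, while its change at 4 h was -0.06 ± 0.12 (SE, n = 3). Next came Cox7a1 (0.72), Ndufv3 (0.66) and Ndufb11 (0.53 in probe set 2). Ndufs7, an iron-sulphur subunit of the complex I core, was the member that went the other way, with 12.68, 13.04 and 13.02 in the 4 h arrays of replicates 1 to 3, against 12.67, 12.97 and 13.08 in the control arrays, a difference of -0.39 between replicate 1 and the others. Subunits of complex I thus lay on both sides in this comparison. Sdhb had a difference of only 0.14, and its replicate 1 arrays overlapped the others.

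**Figure D4:**
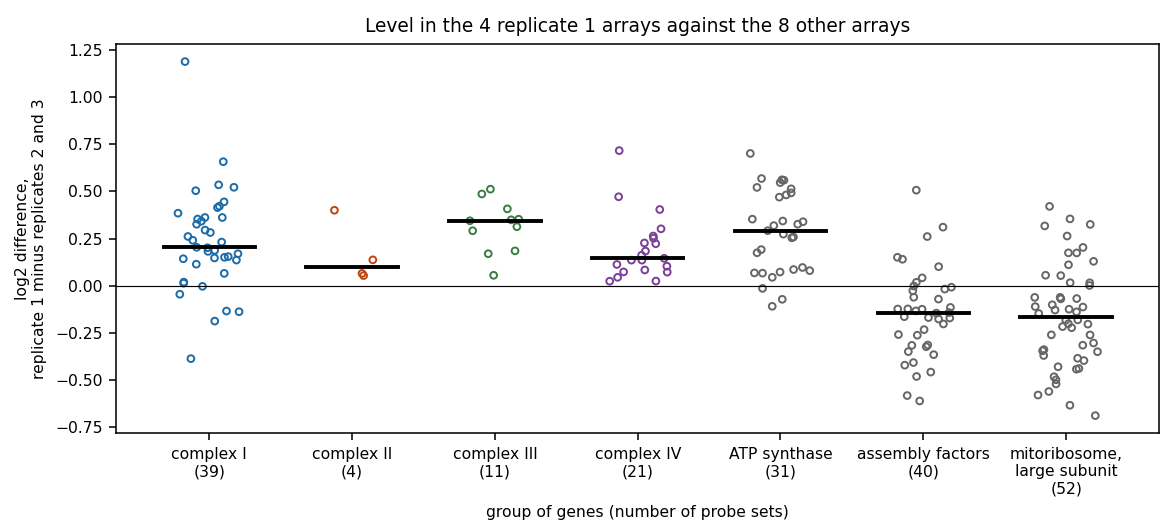
Difference in mean log2 signal between the 4 replicate 1 arrays and the 8 other arrays (y axis) for each probe set (points), by complex and for 3 related gene groups (x axis); bars are medians. Complexes I to IV and ATP synthase have medians of 0.10 to 0.34, assembly factors and mitochondrial ribosomal proteins medians of -0.14 and -0.16.

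Other mitochondrial genes were split in the same comparison. Of 31 probe sets of ATP synthase, 14 had all replicate 1 arrays above the others and 0 below. Assembly factors, which build the complexes without staying in them, had 3 above and 11 below out of 40. Proteins of the large subunit of the mitochondrial ribosome had 3 above and 20 below out of 52. The tricarboxylic acid cycle had 4 above and 4 below out of 18, and regulators of mitochondrial biogenesis 0 above and 7 below out of 17. The background was 8.94% above and 16.1% below. Among hepatocyte markers, all replicate 1 arrays lay above the others in 3 of 10 probe sets. Among markers of other liver cells, this was so in 5 of 9 probe sets of endothelial markers and 1 of 8 of stellate cell markers. It was so in 0 of 5 of cholangiocyte markers and 0 of 14 of Kupffer cell and macrophage markers. The stellate cell marker was Dcn, a proteoglycan also made by fibroblasts, which differed by 2.14, while the median of its list was 0.07. Whether these cells, the handling of the cells or the arrays take part in the difference was not tested.

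The genes around the complexes are given at 4 h, where the background was 3.02% of tested probe sets lower and 1.57% higher. Of the 31 ATP synthase probe sets, 2 fell and 0 rose. Both belong to Atp5h, a stalk subunit of the enzyme. They had 10.71, 10.43 and 10.42 at 4 h, against 11.05, 10.70 and 10.65 in control cells, and 11.56, 11.20 and 11.17 at 4 h, against 11.85, 11.50 and 11.44 in control cells. The changes were -0.28 and -0.29 (limma, adjusted p = 0.0383 and 0.0165), and the third probe set of the gene gave -0.28 (limma, adjusted p = 0.0927). Of 18 probe sets of the tricarboxylic acid cycle and its entry, 2 fell and 0 rose. Pdhb, a subunit of pyruvate dehydrogenase, had 9.67, 9.67 and 9.58 at 4 h, against 10.06, 9.96 and 9.90 in control cells, and changed by -0.33. Pcx, pyruvate carboxylase, which supplies oxaloacetate for gluconeogenesis, changed by -0.35 (limma, adjusted p = 0.0151 for Pdhb and 0.0209 for Pcx). For assembly factors (40 probe sets), electron carriers with cytochrome c1 (9) and subunits coded by mitochondrial DNA (4 probe sets of 2 genes), limma called 0 in either direction. Their numbers at an unadjusted p under 0.05 were 4 lower and 2 higher, 2 lower and 0 higher, and 0, with 9.49% lower and 7.54% higher over all tested probe sets.

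Among 17 probe sets of regulators of mitochondrial biogenesis, 3 fell and 0 rose. Tfb1m, a methyltransferase of mitochondrial ribosomal RNA, had 8.17, 8.67 and 8.48 in the 4 h arrays of replicates 1 to 3, against 8.75, 8.94 and 8.91 in the control arrays, a change of -0.42 (limma, adjusted p = 0.00909). Ppargc1b, a coactivator of oxidative metabolism, had 7.35, 7.08 and 7.17 at 4 h, against 7.96, 7.42 and 7.44 in control cells, a change of -0.41 (limma, adjusted p = 0.0165). For both genes, each 4 h array lay below all control arrays. Of the 17 probe sets of this list, 4 had this pattern and 1 had all 4 h arrays above the control arrays. Over all tested probe sets the shares were 5.58% and 5.43%. Ppargc1a, the related coactivator, fell in 1 of its 2 probe sets, which had 5.26, 5.54 and 5.31 at 4 h, against 5.79, 5.81 and 5.84 in control cells (change -0.44, limma adjusted p = 0.0443). These signals lie below the median of tested probe sets, near the low end of the arrays. Its other probe set gave -0.20 (limma, adjusted p = 0.409). The factors whose motifs were searched did not pass the threshold, with Nrf1 at 0.03, Gabpa at -0.08, Yy1 at 0.01, and Esrra at 0.09 and Esrrg at -0.11 of the oestrogen-related receptors, nor did Tfam, which packs and transcribes mitochondrial DNA, at -0.04.

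The only rises in these lists were 2 of 52 probe sets of the large subunit of the mitochondrial ribosome, with 0 lower. Mrpl19 had 9.84, 10.40 and 10.31 at 4 h, against 9.40, 9.83 and 10.02 in control cells, and changed by 0.43 (limma, adjusted p = 0.0117). Mrpl18 changed by 0.34 (limma, adjusted p = 0.0307). Among the cell type markers, 1 of 10 hepatocyte probe sets fell (Tat, an enzyme of tyrosine breakdown), 1 of 8 of stellate cells (Dcn) and 1 of 9 of endothelial cells (Lyve1), 0 of 5 of cholangiocytes were called, and 0 rose in these 4 lists. Tat fell by 0.31, Dcn fell by 0.48 and Lyve1 fell by 0.37 (limma, adjusted p = 0.0463, 0.0162 and 0.0259). The median changes of the hepatocyte, stellate, endothelial and cholangiocyte lists were -0.13, 0.01, -0.03 and 0.08. In the same order, 8 of 10, 2 of 8, 5 of 9 and 0 of 5 changes lay below 0. Tat kept its call in 9 of 25 alternatives, Dcn in 15 and Lyve1 in 12, and all 3 lost it without 4 h replicate 3 or control replicate 3. Among the mitochondrial genes, Tfb1m kept its call in 20 of 25, Mrpl19 in 18, Pdhb in 16, Ppargc1b in 15, Atp5h in 10 and 15, Pcx in 13, Mrpl18 in 11 and Ppargc1a in 6 of 24. Each of these mitochondrial calls was lost without replicate 2 and without replicate 3. For Tfb1m, the adjusted p was 0.0629 without replicate 2 and 0.146 without replicate 3 (limma), for Pdhb 0.126 and 0.175, for Mrpl19 0.0981 and 0.119, and for Ppargc1b 0.0981 and 0.146. The calls of Atp5h, Pcx, Ppargc1a, Ppargc1b and Mrpl18 were lost without replicate 1 too, at 0.0552 to 0.103. Over all tested probe sets, 985 calls at 4 h were left without replicate 1, 101 without replicate 2 and 32 without replicate 3, against 1000 with all arrays.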

How the data were processed

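The log2 signals of 12 arrays were deposited after the authors had run RMA, with Affymetrix Power Tools, whose version is not given in the sources used here. RMA corrects for background, normalizes quantiles between arrays and summarizes probe sets. The methods of the study name FARMS and ComBat for its own analysis, and the values used here still differ by replicate number. The 20 min group follows the sample labels. Signals carry no counts, and 3 arrays per group limit the precision.

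Of 35556 probe sets, 21789 with exactly 1 symbol in the platform table were tested. Another 1621 had several symbols and 12146 none. A linear model in limma 3.58.1 (R 4.3.3) had time point and replicate number as factors and all 12 arrays, with 6 residual and 5.39 prior degrees of freedom. P values were adjusted by Benjamini-Hochberg over all tested probe sets and called under 0.05. Intervals (95%) and the SE given with a change use the moderated spread of the fit to all 12 arrays, where n is the number per group. The model was also run on simulated data with planted changes larger than any change of a member at 4 h. That run does not bear on changes as small as those of the members.

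The replicate number was kept as a block because all 18 pairs of arrays with the same number deviated together from their group means (r between 0.555 and 0.881). Members and gene lists were chosen with earlier results of these data known, and lists were described by counts and medians only. Named genes are members past the threshold, the highest and lowest of each complex, catalytic subunits and isoform pairs. The other members and list genes were named after their values were seen. Motifs were searched on both strands of RefSeq windows. Alternatives were other blocks, samples, normalizations, priors, filters, weights, 1 mean value per gene, stricter and looser thresholds, and each replicate or array left out.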

Additional observations from a re-analysis of the deposited data

How the results depend on the processing

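The single lower call among members at 4 h, that of Sdhb, held in 14 of 25 alternative fits. The count was 0 with all probe sets tested, with no replicate block, with the replicate block as a random effect, with the compared groups alone in the fit, at an adjusted p under 0.01, and at that threshold with at least a 2-fold change. It was 2 after another quantile normalization and with a trended and robust prior, 3 at an adjusted p under 0.1 and 4 with array weights, and between 0 and 1 when replicates or arrays were left out. The fit with no replicate block, which leaves out the replicate number, called 31 probe sets in all at 4 h, against 1000 with the block. With array weights the time course called 1 member, and Ndufv1, Cox4i1 and Ndufb11 probe set 2 were called at 4 h (limma, adjusted p = 0.0283, 0.0401 and 0.0442). Without replicates or arrays, the median change of members at 4 h lay between -0.106 and -0.0449, that at 2 h between -0.0696 and -0.0255, that at 4 h against 20 min between -0.0342 and 0.011, and those of complexes I, II, III and IV at 4 h between -0.122 and -0.0416, -0.139 and -0.0934, -0.117 and -0.0156, and -0.101 and -0.0342. No alternative turned the sign of the Sdhb change. The 3 arrays per group and the single control time limit what can be read from changes of this size. Most mean signals of the tissue-restricted Cox forms lie below the median of tested probe sets. Causes were not tested.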
